A study of Mus musculus with 12 samples.

Results

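The 10 genes described here encode the protein complexes that start autophagy: the ULK complex (Rb1cc1, Ulk1, Ulk2, Atg13 and Atg101) and the class III PI3-kinase complex (Becn1, Pik3c3, Pik3r4, Atg14 and Uvrag). They were chosen by gene symbol, by a rule that names no level but was set with earlier results of these data known, and make up 10 of the 14851 genes in the deposited tables. All 10 were found, and all 10 passed the filter on low values in every comparison. The question asked was whether the loss of Fip200, the protein of Rb1cc1, or of the later-acting Atg5 or Atg7 changed the RNA of these genes.

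RNA-sequencing was done on 4 groups of 562 cells with 3 samples each. The 562 line arose by spontaneous immortalization of a cutaneous vascular tumor from a mouse in which tamoxifen-induced Scl-Cre, active in endothelial cells, had removed the floxed Tsc1 gene. All 4 groups therefore lack Tsc1, the control included, although its label gives the genotype as wildtype, and all come from 1 line of strain C57BL/6. The 3 KO groups, Fip200 KO, Atg5 KO and Atg7 KO, were made by lentiviral CRISPR with puromycin selection, and the control cells carried an sgRNA against EGFP. The study calls its RNA samples independent replicates and its experiments biological triplicates, but no source used here ties a replicate to a guide, a clone or a culture, so p-values measure the spread between these samples, part of which may be technical. The same 3 control samples serve in all 3 comparisons.

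The ULK complex is a protein kinase assembly. Ulk1 or its relative Ulk2 supplies the kinase activity, Fip200 is the large scaffold, and Atg13 and Atg101 link the parts. When nutrients or energy run short the complex is switched on, and it recruits the PI3-kinase complex, whose catalytic subunit Vps34 (Pik3c3) makes the lipid PI3P on the membrane that will become the autophagosome. mTORC1, which is overactive in cells without Tsc1, can inhibit Ulk1. In lung endothelial cells without Tsc1, however, the paper saw no rise in the phosphorylation of Ulk1 by mTORC1. It proposes that autophagy continues in them. Atg5 and Atg7 act afterwards, in the ubiquitin-like conjugation of Atg12 to Atg5 and of LC3 to lipid.

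Read totals over the listed genes ran from 17264989 to 23627944 a library, and the highest was 1.37 times the lowest. The 10 genes had between 183 and 3909 reads in a library, so counting error alone was at most 7.39% of a value. The labels name the libraries with the prefixes FY, JG and Yang, whose meaning they do not state. Control replicate 1 and all Fip200 KO libraries are FY, control replicates 2 and 3 and Atg5 KO replicates 1 and 2 are JG, and the rest are Yang. No control library is Yang. Among the markers of the labelled lymphatic endothelial cells, Pecam1 (lowest RPKM 264.6), Cdh5 (116.2), Lyve1 (60.6), Pdpn (51.5) and Flt4 (31.7) were present in every library, whereas Prox1, the defining transcription factor, ranged from 0.037 to 5.79 and Vwf did not pass 0.809. The leukocyte markers Ptprc and Csf1r were at or under 0.179 everywhere, while the macrophage-associated Cd68 ranged from 6.95 to 263.1. Fip200 KO replicate 3 stood furthest from its group (chi-square per degree of freedom of 315.6 and 238.3 against its fellows, and 142.9 between those). Atg5 KO replicates 1 and 2, both JG, were the closest pair of replicates, at 8.66, against at least 51.4 for every other pair.

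Upstream sequence is shown for the 4 genes on which the results turn: Ulk1, which was called lower upon Atg5 and Atg7 KO, its paralog Ulk2, Uvrag, which was called higher upon Atg5 KO only, and Atg14, which competes with Uvrag for a place in the PI3-kinase complex. Each line gives the 250 bases before the RefSeq transcription start (GRCm38.p6), 5′ to 3′ on the gene's strand. Capitals mark the GC box GGGCGG on either strand, and in Uvrag also CCAAT.
Ulk1: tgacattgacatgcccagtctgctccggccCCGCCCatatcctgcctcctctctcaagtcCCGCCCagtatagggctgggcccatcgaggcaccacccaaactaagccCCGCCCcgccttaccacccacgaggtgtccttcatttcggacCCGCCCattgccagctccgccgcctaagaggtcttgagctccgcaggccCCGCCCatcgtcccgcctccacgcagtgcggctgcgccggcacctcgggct
Ulk2: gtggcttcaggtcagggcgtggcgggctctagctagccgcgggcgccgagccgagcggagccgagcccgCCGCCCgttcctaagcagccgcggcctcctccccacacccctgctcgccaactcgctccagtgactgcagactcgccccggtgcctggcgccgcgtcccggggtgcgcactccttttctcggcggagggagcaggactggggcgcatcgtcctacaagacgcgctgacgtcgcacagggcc
Atg14: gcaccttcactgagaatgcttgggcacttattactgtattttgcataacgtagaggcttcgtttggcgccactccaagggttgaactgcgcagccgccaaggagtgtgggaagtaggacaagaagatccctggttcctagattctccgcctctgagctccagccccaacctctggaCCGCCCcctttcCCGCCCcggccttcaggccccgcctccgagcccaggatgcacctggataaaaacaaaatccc
Uvrag: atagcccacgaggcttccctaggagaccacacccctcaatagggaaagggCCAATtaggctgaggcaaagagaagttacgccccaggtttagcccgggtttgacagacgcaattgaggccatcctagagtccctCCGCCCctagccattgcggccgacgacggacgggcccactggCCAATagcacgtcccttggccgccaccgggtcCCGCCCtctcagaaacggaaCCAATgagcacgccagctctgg

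The Ulk1 stretch lies at chr5:110810082-110810331, that of Ulk2 at chr11:61855093-61855342, that of Atg14 at chr14:47568435-47568684 and that of Uvrag at chr7:99141145-99141394, all on the minus strand. Ulk1 held 5 GC boxes and its paralog Ulk2 held 1. Of 32851 RefSeq promoters of this length, 32.7% hold at least 1 GC box and 1.93% hold 5 or more. Atg14 and Uvrag held 2 GC boxes each, a number reached by 16.7% of promoters. Uvrag also held 3 CCAAT boxes, which 2.79% of promoters reach, and 33.8% hold at least 1. The GC content was 72.8% for Ulk2, 67.2% for Ulk1, 61.6% for Uvrag and 57.2% for Atg14, against a median of 52.4% over all promoters. The E box CACGTG (in 6.02% of promoters), the cAMP response element TGACGTCA (1.55%), the FOXO site TGTTTAC (3.17%) and the amino acid response element TGATGCAA (0.791%), each read on both strands, did not occur in these windows in any of the 7 genes that had a promoter entry. The ETS site CCGGAAGT (2.88%) occurred once, in Atg101. Atg13, Atg101 and Pik3r4 had no GC box, and Pik3r4 held 1 CCAAT box. These matches were looked for after the expression values were known and describe letters only.

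In control cells the levels of the 10 genes, as RPKM (reads scaled by gene length and by the reads of the library), spanned from 4.98 ± 0.988 for Atg14 to 37.2 ± 1.90 for Becn1 (SD, n = 3). Becn1, Uvrag (33.4 ± 3.01) and Atg101 (29.5 ± 3.34) formed the upper tier, and within it the control libraries of neighbours in the order overlapped. Ulk1 (14.3 ± 1.22) and Atg13 (13.1 ± 3.26) came next and overlapped with each other, but not with Atg101 above. Pik3r4 (7.84 ± 0.623), Rb1cc1 (7.48 ± 0.948) and Pik3c3 (7.13 ± 0.838) overlapped among neighbours, and so did Ulk2 (5.15 ± 0.284) and Atg14. Rb1cc1 and Pik3c3 were thus among the less abundant transcripts, as were Pik3r4, Ulk2 and Atg14, while Becn1, Uvrag and Atg101 were among the more abundant.

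The genes also differed in how steady they were over the 12 libraries. Becn1, which encodes Beclin 1, the regulatory subunit shared by both forms of the PI3-kinase complex, had the smallest coefficient of variation of the 10, 7.87%, and Ulk1 the largest, 30.2%. The median of the 10 was 19.5%, against 24.7% for the 6241 genes with a mean RPKM in the same range, and 7 of the 10 lay under that value.

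Rb1cc1 is the gene targeted in Fip200 KO cells, and with all libraries its RNA did not separate those cells from control. Its RPKM was 6.43, 8.27 and 7.73 in the control libraries and 5.18, 6.84 and 2.06 in the Fip200 KO libraries. Replicate 3 was the lowest of all 12 libraries, at 318 reads, while replicate 2 lay inside the control range. The log2 fold change was −0.74 (SE 0.401, limma adjusted p = 0.404). Without Fip200 KO replicate 3 it was −0.30 (limma adjusted p = 0.527). Without Fip200 KO replicate 2, the library inside the control range, it was −1.06 (limma adjusted p = 0.307). That choice by itself leaves both KO libraries below control. RNA of the targeted gene does not check the label here, since an insertion or deletion in a coding exon can leave the transcript in place, and the study assessed loss of the protein by western blot. Rb1cc1 stood at 6.62, 5.81 and 6.10 upon Atg5 KO and at 5.88, 6.92 and 6.86 upon Atg7 KO, in both cases overlapping with control (log2 fold changes −0.25 and −0.17, limma adjusted p = 0.214 and 0.516).

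The 3 genes whose log2(RPKM + 0.5) ran most like that of Rb1cc1 over the 12 libraries, among the 8574 genes whose RPKM never fell below 2, were Ift20 (Pearson r = 0.938), Zfp260 (0.932) and App (0.913). Each of them was lowest in Fip200 KO replicate 3, with an RPKM of 19.8 for Ift20, 9.16 for Zfp260 and 145.2 for App, whereas the other 11 libraries did not go below 25.2, 14.02 and 260.4. The likeness is a description, and the 12 points share 1 low library.

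In Fip200 KO cells 0 of the 10 genes passed an adjusted p of 0.1 against control (limma, over 11803 genes), where 2.05% of all genes tested did, and 1 had an unadjusted p under 0.05, against 16.1% of all genes. That gene was Ulk1. The median log2 fold change of the 10 was −0.13, against 0.02 over all genes tested. The 95% intervals of the 10 reached from −1.69 (Rb1cc1) to 0.85 (Atg14), so a change of about the size called elsewhere could have gone unseen for several of them.

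Ulk1, the main autophagy-initiating kinase, was lower than control in every KO library. Its RPKM was 12.9, 15.3 and 14.6 in control, 9.61, 8.36 and 8.99 in Fip200 KO libraries, 10.0, 9.46 and 9.51 where Atg5 was targeted and 6.01, 6.82 and 6.87 where Atg7 was. All 9 KO libraries were below all 3 control libraries, and the Atg7 KO libraries were below those of the other KO cells. Ulk1 fell in Atg7 KO cells by 1.06 on the log2 scale (SE 0.158, limma adjusted p = 0.0127), which also passed the fold change threshold of 1. It fell in Atg5 KO cells by 0.53 (SE 0.117, limma adjusted p = 0.0183). In Fip200 KO cells the log2 fold change was −0.64 (SE 0.193, 95% interval −1.09 to −0.18) with an unadjusted p of 0.0123 and a limma adjusted p of 0.189, so it was not called, although the groups did not overlap. Genes with every KO library below every control library made up 12.4% of those tested for Fip200 KO, 22% for Atg5 KO and 20.4% for Atg7 KO cells.

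The share of all genes called matters for reading the Ulk1 values. At an adjusted p of 0.1, 41.5% of 11833 genes were called in Atg5 KO cells (18.7% lower, 22.9% higher) and 25.1% of 11784 in Atg7 KO cells (13.7% lower, 11.3% higher). Against these, 2 of the 10 genes were called in Atg5 KO cells, Ulk1 lower and Uvrag higher, and 1 in Atg7 KO cells, Ulk1. With a log2 fold change of at least 1 as well, 1 of 10 passed in Atg7 KO cells (10.1% of all genes), 0 of 10 with Atg5 KO (11.2%) and 0 of 10 with Fip200 KO (1.98%). With a term for the library-name prefix in a fit of all 12 libraries, 0 of the 10 genes were called in any KO line, and the shares of all genes called were 6.43% for Atg5 KO, 0.311% for Atg7 KO and 0.384% for Fip200 KO. In the separate fits of each KO line with control, the shares among the complex genes did not exceed those among all genes. The median log2 fold change of the 10 was 0.04 upon Atg5 KO and −0.09 upon Atg7 KO, against 0.06 and −0.01 over all genes.

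The library-name prefix goes partly with the groups, and the JG libraries of Atg5 KO cells were the closest pair of replicates. Within the JG libraries alone, Ulk1 was 15.3 and 14.6 in control and 10.0 and 9.46 in Atg5 KO cells, a log2 fold change of −0.59 (limma adjusted p = 0.0267). With the prefix as a term over all 12 libraries it was also −0.59 but was no longer called (limma adjusted p = 0.138). Within the FY libraries, the only control library had 12.9 and the 3 Fip200 KO libraries had between 8.36 and 9.61. For Atg7 KO cells there is no control library of the same prefix, and with the same term the log2 fold change was −1.10 and was not called either (limma adjusted p = 0.289). The prefix and Atg7 loss can there be separated only through the single Yang library of Atg5 KO cells. Cd68 also moved with these groups: it was lower in Atg5 KO (log2 fold change −2.26, limma adjusted p = 0.0064) and Atg7 KO cells (−1.70, limma adjusted p = 0.0798), with the summed RPKM of the 3 blood cell markers in the table, of 5 listed, between 34.5 and 91.8 in control, between 7.02 and 27.1 with Atg7 KO and between 10.1 and 11.8 with Atg5 KO. Because Ptprc and Csf1r were near 0 throughout, that sum is almost entirely Cd68, and its part in the Ulk1 values was not tested. In Fip200 KO cells, where Ulk1 was also below control, Cd68 overlapped with control (log2 fold change −0.31, limma adjusted p = 0.904) and the sum ran from 16.0 to 263.1. The endothelial marker Flt1, a VEGF receptor, lay below control in all 3 KO lines as Ulk1 did (log2 fold changes −3.66, −1.54 and −2.99, limma adjusted p = 0.0995, 0.122 and 0.0196). The median over the 8 tested endothelial markers was 0.20, 0.63 and 0.14. Krt18, the only epithelial marker tested of 4 listed, was lower but not called (−1.69, −0.86 and −1.70, limma adjusted p = 0.324, 0.162 and 0.125). Of 6 tested lymphatic markers, 1 rose upon Atg7 KO, Lyve1 (1.11, 0.0947), and 0 fell, where 11.3% of all genes were called higher. The part of these markers in the Ulk1 values was not tested. In RNA from whole cultures, fewer cells that express a gene and less RNA per cell cannot be told apart.

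**Figure D1:**
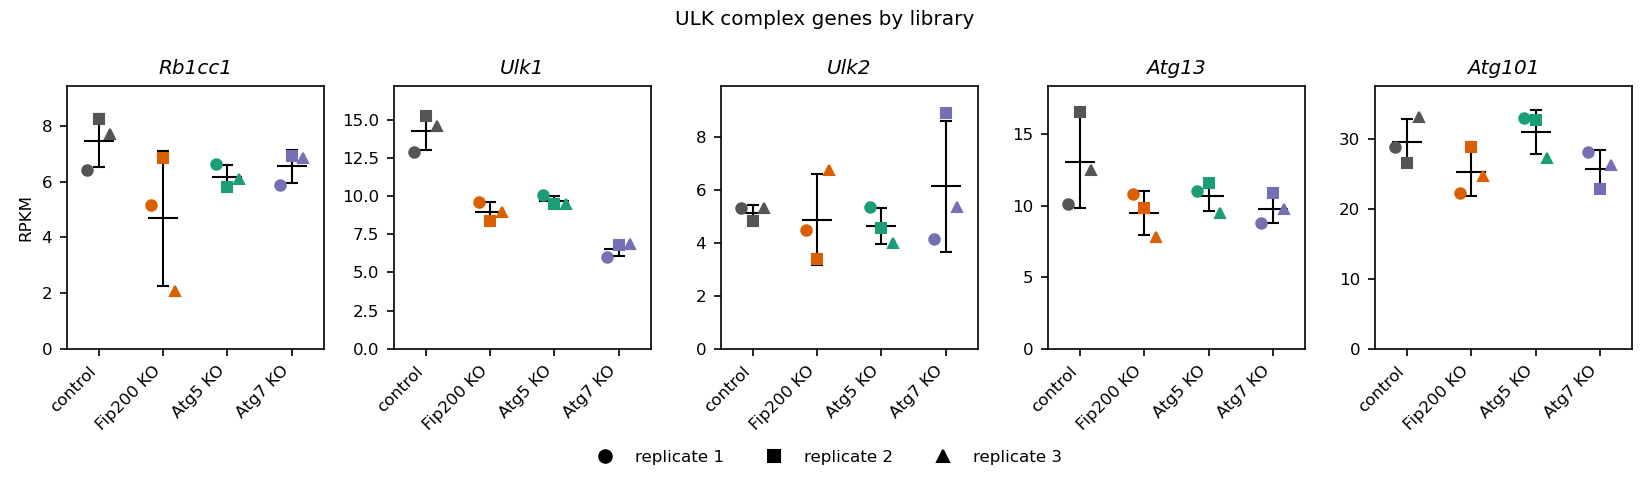
RPKM (y axis, from 0) of the 5 ULK complex genes in each of the 12 libraries, by group (x axis), with bars for the mean and SD of 3 libraries and marker shapes for replicates 1 to 3. Ulk1 lies between 12.9 and 15.3 in control and between 6.01 and 10.0 in the 9 KO libraries, and Rb1cc1 has 1 low library, Fip200 KO replicate 3, at 2.06.

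Ulk2, which can stand in for Ulk1 in many cells, was not called in any comparison. Its RPKM was 5.32, 4.83 and 5.32 in control, 4.48, 3.38 and 6.77 after Fip200 KO, 5.37, 4.55 and 4.01 after Atg5 KO and 4.13, 8.92 and 5.38 after Atg7 KO. The groups overlapped in every comparison, with the widest spread in Fip200 KO (SD 1.73) and Atg7 KO cells (SD 2.48). Its log2 fold changes were −0.12, −0.14 and 0.17 (limma adjusted p = 0.86, 0.488 and 0.692), and leaving out replicate 2 of the KO turned the sign to −0.11 for Atg7 KO and to 0.09 for Fip200 KO.

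Atg13, the subunit that joins the kinase to Fip200, was lower in mean in all 3 KO lines without passing the test. It stood at 10.1, 16.6 and 12.5 in control, 10.8, 9.87 and 7.79 with Fip200 KO, 11.02, 11.6 and 9.50 with Atg5 KO and 8.77, 10.9 and 9.81 with Atg7 KO. Control replicate 2 was high and control replicate 1 lay within the KO range. The log2 fold changes were −0.43, −0.26 and −0.37 (limma adjusted p = 0.438, 0.341 and 0.256), and each of them moved with the control library left out. Without control replicate 2 they were −0.25, −0.08 and −0.19, and without control replicate 1 they were −0.59, −0.42 and −0.54 (limma adjusted p = 0.447, 0.114 and 0.156). With the prefix as a term over all 12 libraries they were −0.10, −0.34 and −0.30 (limma adjusted p = 0.953, 0.444 and 0.837). Atg101, which steadies Atg13, varied between 22.2 and 33.1 over all libraries, with log2 fold changes of −0.22, 0.07 and −0.19 (limma adjusted p = 0.592, 0.708 and 0.425).

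Of the PI3-kinase complex, Uvrag was the gene that rose. Uvrag marks the form of the complex that acts on endosomes and on autophagosome maturation. Its RPKM was 31.4, 31.9 and 36.8 in control, 39.8, 38.5 and 32.7 upon Fip200 KO, 44.9, 48.2 and 52.6 upon Atg5 KO and 42.2, 35.4 and 51.6 upon Atg7 KO. All Atg5 KO libraries lay above control, as for 28.4% of all genes, and the log2 fold change was 0.53 (fold 1.45, SE 0.115, limma adjusted p = 0.0174). Within the JG libraries alone it was 0.43 (limma adjusted p = 0.0576), and with the prefix as a term over all 12 libraries it was 0.43 and not called (limma adjusted p = 0.291). In Atg7 KO cells the groups overlapped through replicate 2, and the log2 fold change of 0.35 (SE 0.178, limma adjusted p = 0.209) was not called. Without that library it was 0.48 (limma adjusted p = 0.0786), without replicate 3 it was 0.21 (0.477), and with the prefix as a term it was 0.13 (0.926). In Fip200 KO cells it was 0.15 (SE 0.181, limma adjusted p = 0.712). Of all genes tested, 22.9% were called higher and 18.7% lower in Atg5 KO cells. Of 8 tested endothelial markers, 3 rose in Atg5 KO cells and 0 fell: Cdh5 (log2 fold change 1.28, limma adjusted p = 0.0376), Kdr (1.35, 0.0878) and Tie1 (0.76, 0.0986). Pecam1 (0.19, 0.461) and Flt1 (−1.54, 0.122) were not called, and all Flt1 libraries lay below control. Of 6 tested lymphatic endothelial markers, 2 rose there and 0 fell: Lyve1 (1.25, 0.048) and Flt4 (0.80, 0.0734). Of the 2 tested fibroblast and mural markers, Acta2, the smooth muscle actin, rose (1.496, 0.0499) and Dcn was not called (−2.88, 0.182). The summed RPKM was 2135 to 2591 there and 1034 to 2481 in control for the 9 endothelial markers, 421.1 to 533.4 and 298 to 414.7 for the 6 lymphatic markers in the table, of 7 listed, and 4.66 to 6.00 and 1.11 to 70.7 for the 6 fibroblast and mural markers in the table, of 7 listed. The part of these markers in the Uvrag values was not tested.

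Atg14, which marks the form of the complex that starts the autophagosome and binds Beclin 1 in place of Uvrag, measured 4.20, 6.09 and 4.65 RPKM in control and 5.97, 5.84 and 6.78 in Fip200 KO libraries. The Atg5 KO libraries had 5.39, 5.49 and 4.11 and the Atg7 KO libraries 4.33, 2.91 and 5.18. It was the least abundant of the 10 on average, and every comparison with control overlapped, with log2 fold changes of 0.30, 0.01 and −0.26 (limma adjusted p = 0.541, 0.976 and 0.504). The sign in Atg5 KO cells was not stable under other scalings of the libraries.

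The other subunits overlapped with control. Becn1 was 39.4, 36.2 and 36.1 in control and between 36.1 and 45.8 in the KO libraries, and its log2 fold changes were 0.13, 0.09 and 0.00. Their 95% intervals together ran from −0.31 to 0.54. Pik3c3, the lipid kinase Vps34, was 7.24, 6.25 and 7.91 in control and between 5.49 and 9.14 in the KO libraries. Pik3r4, its pseudokinase partner Vps15, was 7.39, 7.58 and 8.55 in control and between 6.65 and 9.25 in the KO libraries. Across Becn1, Pik3c3 and Pik3r4 the lowest limma adjusted p was 0.5, for Pik3r4 in Atg5 KO cells.

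**Figure D2:**
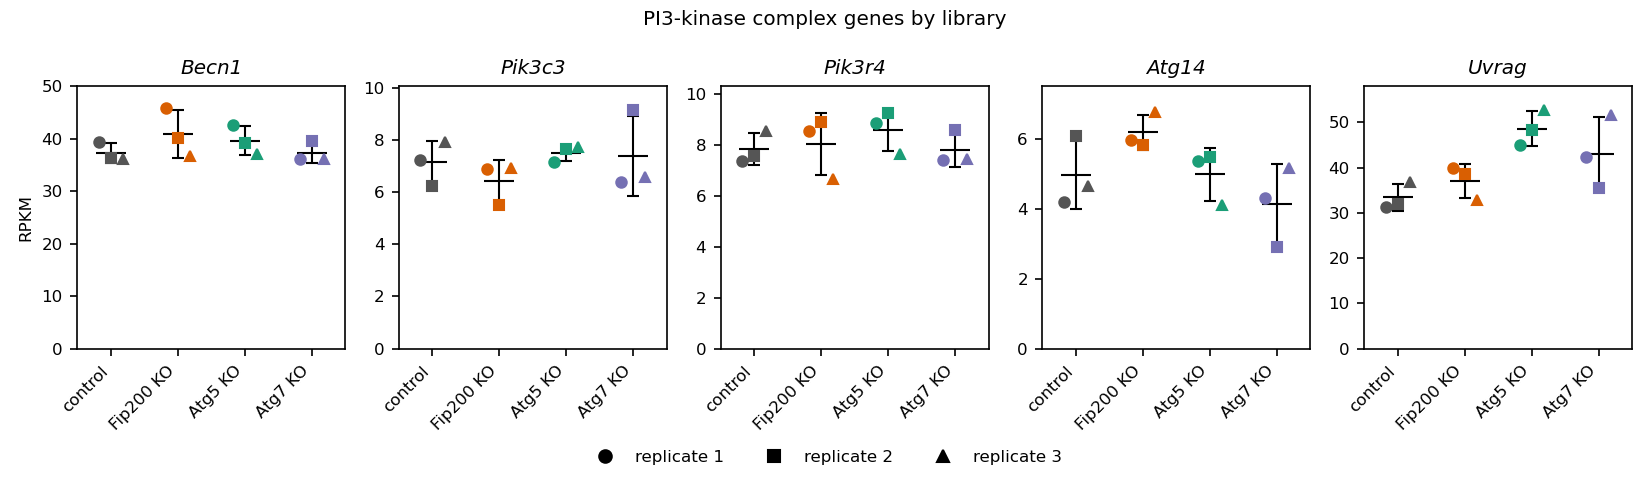
RPKM (y axis, from 0) of the 5 PI3-kinase complex genes in each library, by group (x axis), with bars for the mean and SD of 3 libraries and marker shapes for replicates 1 to 3. Uvrag lies between 44.9 and 52.6 in the Atg5 KO libraries and between 31.4 and 36.8 in control, while Becn1 stays between 36.1 and 45.8 in all 12 libraries.

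**Figure D3:**
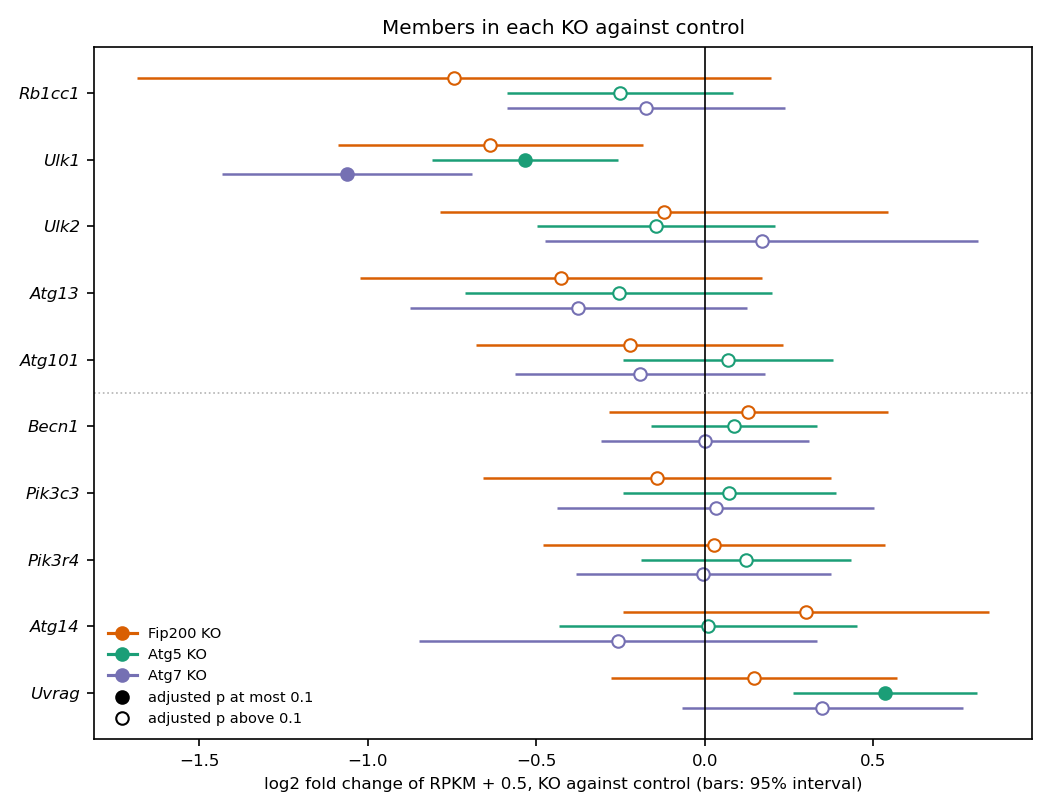
Log2 fold change of RPKM + 0.5 against control (x axis) for each of the 10 genes (y axis) in each KO, with 95% intervals from limma and filled points for an adjusted p of at most 0.1. The 3 filled points are Ulk1 in Atg5 KO (−0.53) and Atg7 KO cells (−1.06) and Uvrag in Atg5 KO cells (0.53), and the interval of Rb1cc1 in Fip200 KO cells, −1.69 to 0.20, is the widest.

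The KO lines were also compared with each other, in 1 fit of all 12 libraries. In each of the 3 comparisons 0 of the 10 genes and 0 of 12233 genes (0%) passed an adjusted p of 0.1 by limma, with 927, 916 and 562 genes at an unadjusted p under 0.05 for Atg5 KO against Fip200 KO, Atg7 KO against Fip200 KO and Atg7 KO against Atg5 KO. For the comparisons with Fip200 KO cells, the count of 0 over all genes rested on 1 library. Without Fip200 KO replicate 3, 588 genes passed an adjusted p of 0.1 (limma) in the first comparison and 775 in the second. The count among the 10 genes was 0 there too. Ulk1 in Atg7 KO cells was 0.53 lower on the log2 scale than in Atg5 KO cells (SE 0.144, 95% interval of the difference −0.84 to −0.21, unadjusted p = 0.00358, limma adjusted p = 0.888). Against Fip200 KO cells the difference was −0.43 (SE 0.144, limma adjusted p = 0.57). In both comparisons the libraries did not overlap, as for 11.2% and 4.37% of all genes in that direction. Atg14 was 0.56 lower in Atg7 KO than in Fip200 KO cells (SE 0.225, limma adjusted p = 0.643), again without overlap, and its Atg5 KO libraries also lay below those of Fip200 KO (log2 difference −0.29, limma adjusted p = 0.75), as for 5.91% of genes. Uvrag in Atg5 KO cells stood 0.39 above Fip200 KO cells (SE 0.164, limma adjusted p = 0.627), and no Atg5 KO library overlapped with them, as for 8.44% of all genes. The same held for Pik3c3 (0.21, limma adjusted p = 0.77). None of these differences between KO lines was called, so the larger fold of Ulk1 in Atg7 KO cells was not shown to differ from that in the other lines.

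Ratios within a library compare genes of the same complex, and they do not depend on the scaling between libraries. They reuse the values given above and are not separate results. The 3 pairs below were chosen after the values were seen. With 3 libraries against 3, the exact permutation test (two-sided) cannot give a p under 0.1. The ratio of Ulk1 to Ulk2 was 2.43, 3.16 and 2.75 in control and 1.45, 0.764 and 1.28 in Atg7 KO libraries, so that in replicate 2 there was more Ulk2 than Ulk1 RNA per length. It was 1.87, 2.08 and 2.37 in Atg5 KO libraries, and both KO groups lay apart from control (exact permutation p = 0.1). In Fip200 KO libraries it was 2.15, 2.47 and 1.33 and overlapped with control (exact permutation p = 0.2).

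The ratio of Ulk1 to Rb1cc1 was narrow within control (2.01, 1.84 and 1.89), Atg5 KO (1.52, 1.63 and 1.56) and Atg7 KO libraries (1.02, 0.985 and 1.00), and these 3 groups did not overlap. In Fip200 KO libraries it ran from 1.22 to 4.37, following the spread of Rb1cc1. The ratio of Uvrag to Atg14 was 7.46, 5.24 and 7.93 in control, 8.34, 8.79 and 12.8 after Atg5 KO and 9.76, 12.2 and 9.96 after Atg7 KO. Both lay above control (exact permutation p = 0.1 each), and the Fip200 KO libraries, at 6.67, 6.59 and 4.83, overlapped with it (exact permutation p = 0.5).

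**Figure D4:**
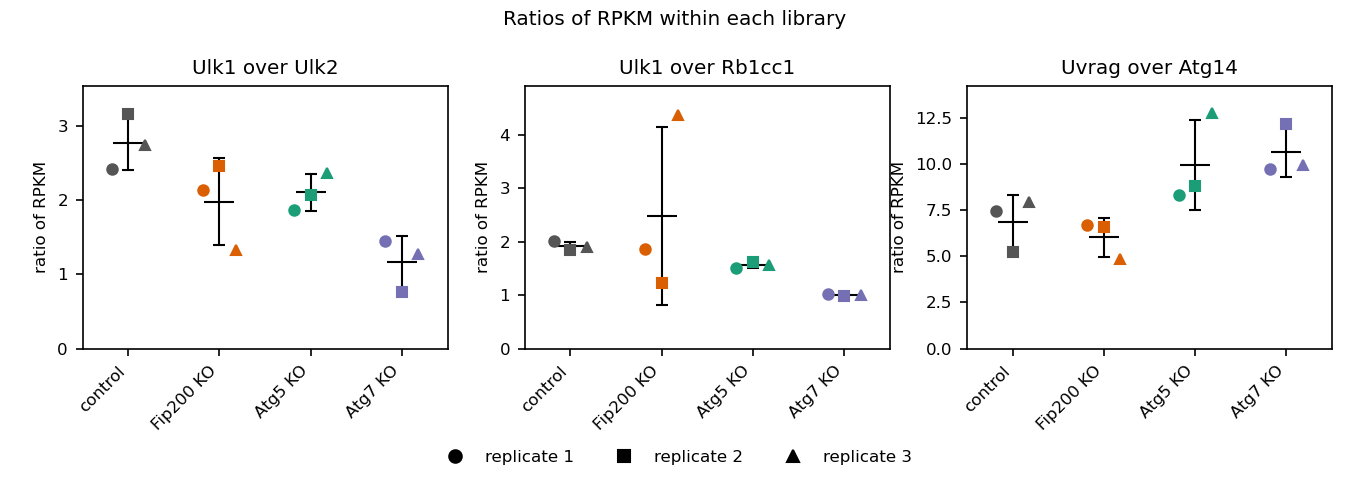
Ratio of RPKM (y axis, from 0) of Ulk1 to Ulk2, Ulk1 to Rb1cc1 and Uvrag to Atg14 within each library, by group (x axis), with bars for the mean and SD of 3 libraries and marker shapes for replicates. Ulk1 over Rb1cc1 lies between 1.84 and 2.01 in control and between 0.985 and 1.02 in Atg7 KO libraries, and reaches 4.37 in Fip200 KO replicate 3.

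Other genes of the pathway were counted for comparison, against the shares of all genes called lower and higher given above (18.7% and 22.9% for Atg5 KO, 13.7% and 11.3% for Atg7 KO). For Fip200 KO, 2.05% of all genes were called and 16.1% had an unadjusted p under 0.05. With the prefix term, 6.43% of all genes were called for Atg5 KO, 0.311% for Atg7 KO and 0.384% for Fip200 KO. The calls in these lists were not repeated with that term. Of the 16 genes of the conjugation machinery, which attaches LC3 and its relatives to lipid, 0 passed an adjusted p of 0.1 (limma) in Fip200 KO cells, with 2 at an unadjusted p under 0.05. Of the same genes 7 fell and 0 rose in Atg5 KO cells, and 4, the targeted Atg7 among them, fell and 0 rose upon Atg7 KO. Of the 10 genes of the ATG9 vesicle and membrane supply group, 0 passed in Fip200 KO cells (1 at an unadjusted p under 0.05), 6 fell and 2 rose upon Atg5 KO, and 4 fell and 0 rose upon Atg7 KO. Of 18 tested regulators and relatives of the initiation complexes, of 21 listed, 1 fell upon Fip200 KO, 5 fell and 3 rose upon Atg5 KO, and 3 fell and 1 rose upon Atg7 KO. In the same order of KO lines, the median log2 fold change was −0.16, −0.38 and −0.44 for the conjugation machinery, −0.07, −0.51 and −0.48 for the membrane supply group and 0.01, −0.07 and −0.06 for the regulators.

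The genes past both thresholds in these lists were few. Dapk1, a death-associated kinase that phosphorylates Beclin 1, fell in all 3 KO lines, with an RPKM of 19.2 to 32.5 in control, 6.25 to 9.96 with Fip200 KO, 11.1 to 12.8 with Atg5 KO and 5.397 to 11.8 with Atg7 KO. Its log2 fold changes were −1.68, −1.02 and −1.69 (limma adjusted p = 0.0629, 0.0129 and 0.0228), and the 3 comparisons share their control libraries. No gene was called in Fip200 KO cells once control replicate 2 or 3 was left out (0 genes by limma). Atg4a, a protease that processes LC3-family proteins, fell in Atg5 KO cells from 4.66 to 6.50 in control to 2.11 to 2.69 (log2 fold change −1.02, limma adjusted p = 0.009). Map1lc3a, an LC3 gene, fell there by 1.10 on the log2 scale (limma adjusted p = 0.0921), although 1 of its libraries, at 14.97, lay above the lowest control library, at 14.73. Atg7 RNA fell by 1.97 in Atg7 KO cells (limma adjusted p = 0.0216), with an RPKM of 18.4 to 25.0 in control and 2.64 to 8.34 there. It also fell by 0.95 upon Atg5 KO (limma adjusted p = 0.0083), to an RPKM of 9.94 to 11.9, and ran from 8.23 to 38.3 upon Fip200 KO. Atg5 RNA in Atg5 KO cells, at 8.53 to 15.5, overlapped with control at 10.6 to 14.2 (log2 fold change 0.0029, limma adjusted p = 0.994).

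Among the regulators of the kinase complexes, Mlst8, a subunit of mTORC1, rose in Atg5 KO (log2 fold change 0.86, limma adjusted p = 0.00651) and Atg7 KO cells (0.60, 0.0747), and Mtor, its kinase, rose in Atg5 KO cells (0.52, 0.0176) and was not called in Atg7 KO cells (0.44, 0.15). Rptor, another subunit of mTORC1, was called in neither (−0.01, 0.973 and −0.07, 0.764). Bcl2l1, whose protein Bcl-xL binds Beclin 1, fell in both (−0.95, 0.00487 and −0.50, 0.0647). C9orf72, whose protein forms a complex with Smcr8 and Wdr41 that interacts with the ULK complex, fell in both as well (−0.98, 0.0394 and −0.94, 0.0734), while Smcr8 rose in Atg5 KO cells (0.48, 0.0442) and was not called in Atg7 KO cells (0.36, 0.277), and Wdr41 was called in neither (−0.09, 0.707 and −0.43, 0.178). Mlst8, Mtor, Bcl2l1, C9orf72 and Smcr8 did not reach a log2 fold change of 1 and were picked out after their values were seen. Rptor and Wdr41 were named beside them as partners, also outside the rule on both thresholds. The same holds for Rubcn (−0.36, limma adjusted p = 0.0709) and Stk36 (−0.49, 0.0912), which fell in Atg5 KO cells. Neither was called in Atg7 KO cells (0.05, 0.881 and −0.51, 0.158).

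**Figure D5:**
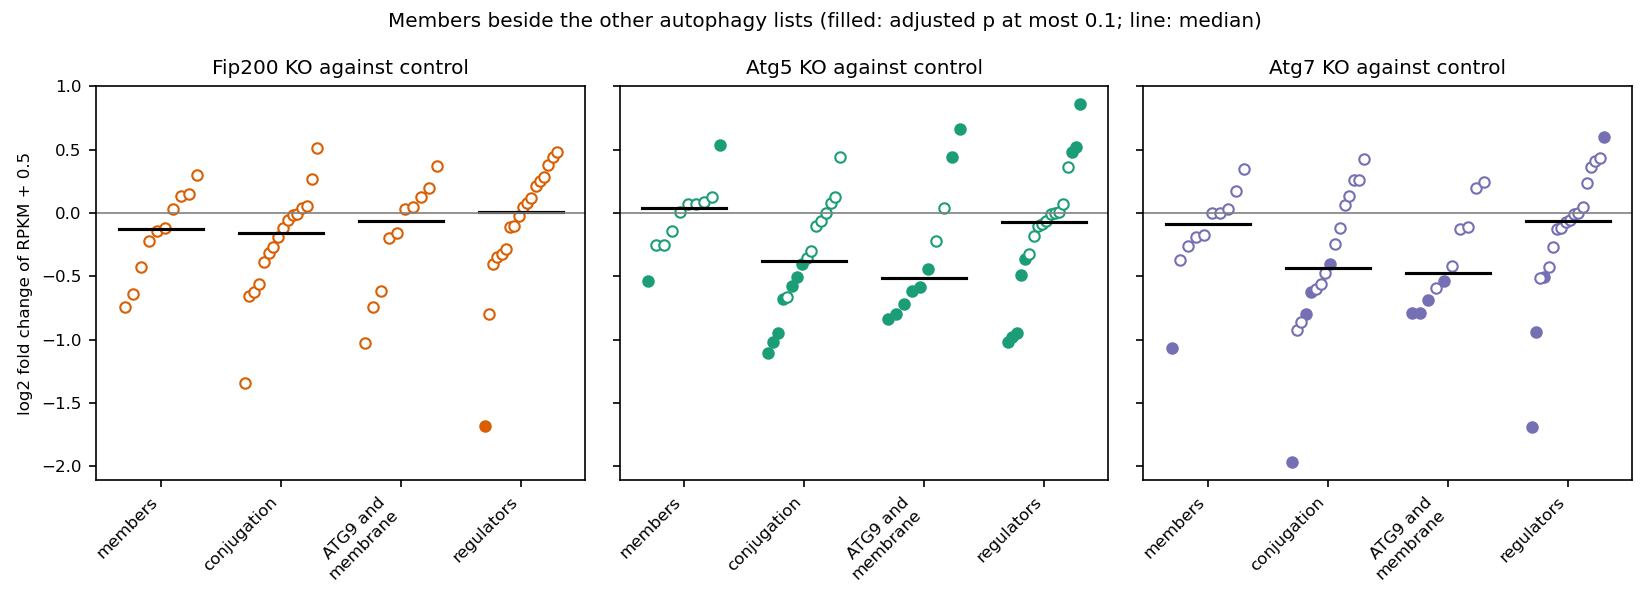
Log2 fold change of RPKM + 0.5 against control (y axis) for each tested gene of 4 lists (x axis; members are the 10 genes of the initiation and PI3-kinase complexes) in each KO, with filled points for a limma adjusted p of at most 0.1 and a line at the median of the list. In Atg5 KO cells the medians are 0.04 for the 10 complex genes, −0.38 for the conjugation machinery, −0.51 for the ATG9 and membrane supply genes and −0.07 for the regulators.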

How the data were processed

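RNA was sequenced from 562 cells (control, Fip200 KO, Atg5 KO, Atg7 KO; 3 libraries each) with a directional kit. In their methods the authors name TopHat2 for alignment after adapter trimming, Bioconductor packages for counting per known transcript, and edgeR for their own test. The genome build, annotation, versions and strand setting are not given in the sources used here, so reads of overlapping or antisense genes may be shared. The authors deposited RPKM per library in 3 tables, whose control values were identical. The unit was taken to be RPKM from the values. Whole reads could be recovered for 14851 of 14851 genes (tolerance 0.001) and gave the depth, but this recovery does not check the scaling by gene length. Control and KO group means, fold changes and p-values in the tables were not used.

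Comparisons with control used limma 3.58.1 with trend (R 4.3.3) on log2(RPKM + 0.5), which understates changes of low genes. A gene was tested where 3 or more of the 6 libraries reached an RPKM of 0.5, with Benjamini-Hochberg adjustment over all of them. Calls used an adjusted p of at most 0.1, with and without a log2 fold change of 1 in size, as in the methods. KO lines were compared in 1 fit of 12 libraries. Ratios were tested by exact permutation (scipy 1.17.1). The fit was tested on simulated data. The text names all 10 genes, the other targeted genes, listed pathway genes past both thresholds, and the 3 genes most correlated with Rb1cc1. Genes named outside that rule are said to be so or are cell type markers. The members and lists were chosen with earlier results of these data known. No replicate was a duplicate (chi-square per degree of freedom at least 8.66, the value for Atg5 KO replicates 1 and 2). Replicate numbers did not pair the samples. Alternatives were the pseudocount, filter, scaling, moderation, prefix, block, shared fit and leaving out each library. Promoter sequences of 7 of the 10 genes came from RefSeq (GRCm38.p6).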

Additional observations from a re-analysis of the deposited data

How the results depend on the processing

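Over 30 log2 fold changes of the 10 genes against control and 490 alternatives, 458 kept direction and side of the threshold. With all 12 libraries in 1 fit, 1 gene was called in Fip200 KO cells (Ulk1, adjusted p = 0.037), with 9.44% of all genes called. With a term for the prefix of the library name, 0 members were called in Atg5 KO cells (Ulk1 −0.59, adjusted p = 0.138, and Uvrag 0.43, adjusted p = 0.291) and 0 in Atg7 KO cells by both rules (Ulk1 −1.10, adjusted p = 0.289), and over all genes 787 and 38 of 12233 were called. Leaving out each library gave 1 to 2 called genes in Atg7 KO cells, the second being Uvrag without replicate 2, and left the other counts of called genes as they were. Over all genes, the count of 242 in Fip200 KO cells was 0 without control replicate 2 or 3 and 752 without Fip200 KO replicate 3. The cause of these changes was not tested.

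The sign reversed in 27 values of 6 genes, none with an adjusted p under 0.644 or a size over 0.184. With the prefix term in Atg7 KO cells, Atg101 was 0.0567, Pik3c3 −0.0102, Pik3r4 0.184 and Atg14 0.0031. With median-of-ratios scaling, Atg14 in Atg5 KO cells was −0.0424 and Pik3r4 in Atg7 KO cells 0.0029, and with upper-quartile scaling they were −0.0183 and 0.013. Leaving out each library, the range in Fip200 KO cells was −0.3613 to 0.0906 for Ulk2 and −0.0476 to 0.1501 for Pik3r4. In Atg5 KO cells it was −0.0029 to 0.157 for Atg101, −0.0127 to 0.1464 for Pik3c3 and −0.0941 to 0.1498 for Atg14. In Atg7 KO cells it was −0.1141 to 0.3978 for Ulk2, −0.0415 to 0.0431 for Becn1, −0.1218 to 0.1189 for Pik3c3 and −0.0693 to 0.0564 for Pik3r4.

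The replicate block left the called members at 0 for Fip200 KO, 2 for Atg5 KO and 1 for Atg7 KO. Over all genes it gave 93, 3974 and 1896 calls in place of 242, 4914 and 2955. Same-numbered samples did not deviate together (correlations −0.218 to 0.077), so the numbers were not taken as pairs.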
